A study of Rattus norvegicus with 30 samples.

Results

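Genes of the p53 and Gadd45 damage response were followed across the oesophageal epithelium of 30 rats that had all received the carcinogen NMBA. The set was listed by name, with earlier results of these data known, so counts of its called genes are descriptions only. It held the 3 Gadd45 genes (Gadd45a, Gadd45b, Gadd45g) and 7 p53 target genes (Cdkn1a, Mdm2, Ccng1, Bax, Phlda3, Sesn1, Btg2). Of these 10 genes, 8 had a probe set of their own among the 14217 genes measured. The probe set that carries the name Bax also carries that of another locus, so its values were not attributed to Bax. No probe set carries the symbol Btg2, so its level was not analysed here. Each gene was read from 1 probe set, the one with the highest mean over all arrays, as a log2 expression value, on which a difference of 1 is a 2-fold change.

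All animals were male Sprague-Dawley rats, 4 weeks old when the diets began, and RNA came from pulverized frozen epithelium of the oesophagus, 1 array per rat. They ate either a zinc-deficient diet (ZD) ad libitum or a zinc-sufficient diet (ZS), pair-fed, and were given 4 intragastric doses of NMBA (N-nitrosomethylbenzylamine, an alkylating nitrosamine that causes oesophageal tumours in rats) at 2 mg/kg from week 5. Tissue was taken 15 weeks after the first NMBA dose or 48 h after the last antimiR dose. The unedited rats formed 4 groups of 5: ZS untreated, ZD untreated, ZD with the miR-31 antimiR for 5 weeks and ZD with it for 20 weeks. The antimiR, a locked nucleic acid oligonucleotide that binds and blocks miR-31, was injected into a vein: 20 mg/kg to load, then 6 mg/kg on 9 occasions during 5 weeks. The 20-week group had 20 further doses. The controls are labelled untreated, with no control oligonucleotide named, and the age at which the 5-week group was sampled is not clear from the labels. The knockout rats lacked miR-31 (miR-31-/-, made with CRISPR/Cas9 in Sprague-Dawley rats) and belonged to an experiment of their own that used the same carcinogen assay; 4 ate the ZS and 6 the ZD diet. Littermate wild types of that experiment were not analysed here.

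p53 is a transcription factor that is stabilised when DNA is damaged and switches on genes that stop the cell cycle, repair DNA or start apoptosis. Its targets here act at different points: Cdkn1a encodes p21, which inhibits cyclin-dependent kinases; Mdm2 encodes the ubiquitin ligase that degrades p53 and so closes a feedback loop; and Ccng1 encodes cyclin G1, which brings a phosphatase to Mdm2. Phlda3 encodes an inhibitor of the kinase Akt, and Sesn1 encodes sestrin 1, which restrains the growth regulator mTORC1 when leucine is scarce. The Gadd45 proteins are small stress-induced proteins that bind the kinase Map3k4, upstream of p38 and JNK, and also the replication clamp PCNA. Gadd45a is a p53 target that other stress signals also induce, whereas Gadd45b and Gadd45g are known mainly as genes induced by inflammatory, growth factor and cytokine signals. Dietary zinc deficiency makes the rat oesophageal epithelium hyperplastic and more prone to NMBA tumours, and miR-31 is a microRNA known to be overexpressed in that tissue and in squamous cancers.

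The microRNA that was blocked or deleted is shown first, because it defines the treated and edited groups. The mature rat sequence is that of RefSeq on GRCr8, at chr5:108714906-108714927 on the minus strand, written with its seed (bases 2 to 8) in capitals.
rno-miR-31a-5p: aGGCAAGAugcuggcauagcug

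Upstream sequences of 3 members are shown because these genes moved in different ways with diet: Gadd45a rose, Gadd45g fell and Ccng1 rose by a smaller amount. Each is the 250 bases before the annotated start in RefSeq on GRCr8, on the gene's own strand, with matches to any of the motifs searched in capitals. The windows lie at chr4:97486800-97487049 for Gadd45a, chr17:13530352-13530601 for Gadd45g and chr10:25684877-25685126 for Ccng1, all on the minus strand.
Gadd45a: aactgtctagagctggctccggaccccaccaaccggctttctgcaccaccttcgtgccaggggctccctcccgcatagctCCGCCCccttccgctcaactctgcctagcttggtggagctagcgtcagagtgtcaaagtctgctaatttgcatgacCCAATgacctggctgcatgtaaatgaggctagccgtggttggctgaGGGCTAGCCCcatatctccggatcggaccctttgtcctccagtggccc
Gadd45g: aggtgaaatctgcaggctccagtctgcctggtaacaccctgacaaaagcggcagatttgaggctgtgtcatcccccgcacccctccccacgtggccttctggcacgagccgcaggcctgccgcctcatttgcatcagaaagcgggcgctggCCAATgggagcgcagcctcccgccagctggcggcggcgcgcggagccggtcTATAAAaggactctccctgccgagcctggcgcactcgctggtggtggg
Ccng1: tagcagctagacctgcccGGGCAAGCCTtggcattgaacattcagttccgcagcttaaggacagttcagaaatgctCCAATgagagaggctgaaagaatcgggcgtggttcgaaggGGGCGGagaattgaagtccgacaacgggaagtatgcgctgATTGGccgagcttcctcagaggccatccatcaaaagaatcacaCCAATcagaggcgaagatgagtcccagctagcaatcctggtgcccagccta

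Of the 10 genes, 9 had such a window, and these were searched on both strands together with those of all 33469 promoters in the same table. The windows of Gadd45b, Mdm2 and Sesn1 lie wholly inside the span annotated for the gene and that of Cdkn1a in part; the 3 windows printed lie outside it. The CCAAT box (CCAAT) was present in 7 of the 9, against 34.02% of all promoters, and the GC box (GGGCGG) also in 7, against 30.47%. A match to the p53 half-site consensus, the sequence pattern bound by a p53 dimer, occurred in 4 of the 9 (Gadd45a, Cdkn1a, Ccng1 and Sesn1), against 6.636% of all promoters; 2 of these, Cdkn1a and Sesn1, are among the windows that reach into the gene. The TATA box (TATAAA) was found in 1, Gadd45g, against 12.93%, and the cyclic AMP response element (TGACGTCA) in 1, Btg2, against 1.587%. The AP-1 site (TGANTCA) was found in 0 of the 9, against 6.34%. Relative to the annotated start, the half-site match begins at position -48 in Gadd45a and at -232 in Ccng1. These matches describe letters in a short window and say nothing of binding. They also do not follow direction: of the 4 genes with a half-site match, Gadd45a and Ccng1 were higher on the ZD diet in unedited rats, Sesn1 was lower, and Cdkn1a did not pass the test.

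The arrays fell into separate sets by their median value, 5.37 to 5.45 in the 20 unedited arrays and 5.81 to 5.93 in the 10 knockout arrays. The sets were therefore taken as normalized separately, genotype and set cannot be told apart, and no knockout level was tested against an unedited one. Squamous markers (9 genes, among them Krt5, Krt13 and Krt4) averaged 12.4 to 12.9 on every array. Of these 9, Col17a1 (-0.73, limma adjusted p = 0.00384) and Krt15 (-0.19, 0.0461) were lower on the ZD diet in unedited rats, Col17a1 was also lower than ZS in the 5-week and 20-week antimiR groups (-0.79 and -0.76), and Perp was higher in ZD knockout rats (0.18, 0.00362). The mean of 12 smooth muscle markers moved with diet: 8.66 to 10.0 in ZS untreated, 6.77 to 7.94 in ZD untreated, 6.91 to 9.07 and 6.88 to 9.30 in the antimiR groups at 5 and 20 weeks, 10.4 to 11.4 in ZS knockout and 9.04 to 10.6 in ZD knockout rats. In unedited rats 11 of the 12 smooth muscle genes were lower on the ZD diet (median difference -2.30), and in knockout rats 5 of the 12 (median -1.25). The mean of 12 skeletal muscle markers varied widely within groups, from 5.33 to 10.4 in ZD untreated rats. Of these 12 genes 0 were called for the diet in unedited rats by limma. T and B cell markers (8 genes) lay between 4.33 and 4.75 in all unedited arrays. In whole-tissue RNA of this kind, fewer cells of a type and less RNA per cell cannot be told apart.

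In unedited rats on the ZD diet, Gadd45a and Gadd45b were higher than on the ZS diet, Gadd45g and Sesn1 were lower, and Mdm2 and Ccng1 were higher by smaller amounts. Cdkn1a, the best known target of p53, and Phlda3 did not pass the test. In all, 6 of the 8 genes were called (limma, adjusted p under 0.05 over all genes), 4 higher and 2 lower. Over all 14217 genes 13.9% were called, 6.94% higher and 6.95% lower.

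Gadd45a stood at 7.20, 6.72, 7.05, 7.14 and 6.89 in the ZS untreated rats (7.0 ± 0.19, SD, n = 5). On the ZD diet it stood at 8.24, 8.74, 7.94, 7.43 and 8.61 (8.19 ± 0.53, SD, n = 5). The lowest ZD rat was above the highest ZS rat, and the ZD rats differed among themselves far more than the ZS rats did. The difference was 1.19 log2 units (SE 0.32, 95% interval 0.53 to 1.85, limma adjusted p = 0.0143), or 2.28-fold.

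Gadd45b stood at 8.09, 7.77, 8.13, 7.64 and 7.94 on the ZS diet (7.92 ± 0.21, SD, n = 5) and at 8.36, 8.55, 8.36, 8.76 and 8.66 on the ZD diet (8.54 ± 0.18, SD, n = 5). Again the groups did not overlap, with SDs of 0.21 and 0.18. Gadd45b rose by 0.62 (SE 0.15, limma adjusted p = 0.00840), or 1.54-fold.

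Gadd45g, the third member of the family, went the other way. Its values were 6.25, 5.92, 6.16, 6.42 and 6.37 on the ZS diet (6.22 ± 0.20, SD, n = 5) and 5.34, 5.85, 5.46, 5.74 and 5.88 on the ZD diet (5.65 ± 0.24, SD, n = 5). The groups came close without overlapping. The difference was -0.57 (SE 0.16, limma adjusted p = 0.0202), and it missed the threshold without ZD rat 11 (adjusted p = 0.0571), ZD rat 13 (0.0515) or ZS rat 19 (0.0536).

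Sesn1 was lower by 0.75 log2 units in ZD rats (SE 0.19, limma adjusted p = 0.00911). It stood at 8.36, 8.46, 7.95, 8.61 and 8.08 in ZS rats (8.29 ± 0.27, SD, n = 5) against 7.32, 7.59, 7.48, 7.44 and 7.87 in ZD rats (7.54 ± 0.21, SD, n = 5). Every ZD rat was below every ZS rat.

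Mdm2 and Ccng1, whose proteins act together on p53, were both higher. Mdm2 stood at 9.45, 9.68, 9.34, 9.23 and 9.15 on the ZS diet (9.37 ± 0.21, SD, n = 5) and at 9.58, 9.57, 9.80, 9.88 and 9.77 on the ZD diet (9.72 ± 0.14, SD, n = 5). One ZS rat reached into the ZD range. The difference was 0.35 (SE 0.10, limma adjusted p = 0.0180), and it was not called without ZD rat 14 (adjusted p = 0.0615), ZS rat 19 (0.0506) or ZS rat 20 (0.0591), nor when only these groups were fitted (0.0560).

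Ccng1 stood at 10.19, 10.55, 10.32, 10.04 and 10.45 in ZS rats (10.31 ± 0.20, SD, n = 5) and at 10.63, 10.55, 10.92, 10.73 and 10.81 in ZD rats (10.73 ± 0.14, SD, n = 5). The ranges touched at 10.55. Ccng1 rose by 0.42 (SE 0.12, limma adjusted p = 0.0185), with the call lost without ZD rat 13 (adjusted p = 0.0521) or ZS rat 19 (0.0616).

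Cdkn1a gave nearly the same mean on both diets, 10.27 ± 0.15 on ZS and 10.26 ± 0.32 on ZD (SD, n = 5 each). Its ZS values of 10.34, 10.26, 10.28, 10.02 and 10.43 lay inside the range of the ZD values, 9.90, 10.25, 10.31, 10.74 and 10.09. The difference was -0.01 with a 95% interval of -0.28 to 0.26 (limma adjusted p = 0.974), so a change of 1.19, the size seen for Gadd45a, lies outside it. Phlda3 was at 9.57 ± 0.11 on ZS and 9.63 ± 0.19 on ZD (SD, n = 5 each), a difference of 0.07 with an interval of -0.12 to 0.25 (limma adjusted p = 0.682).

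**Figure D1:**
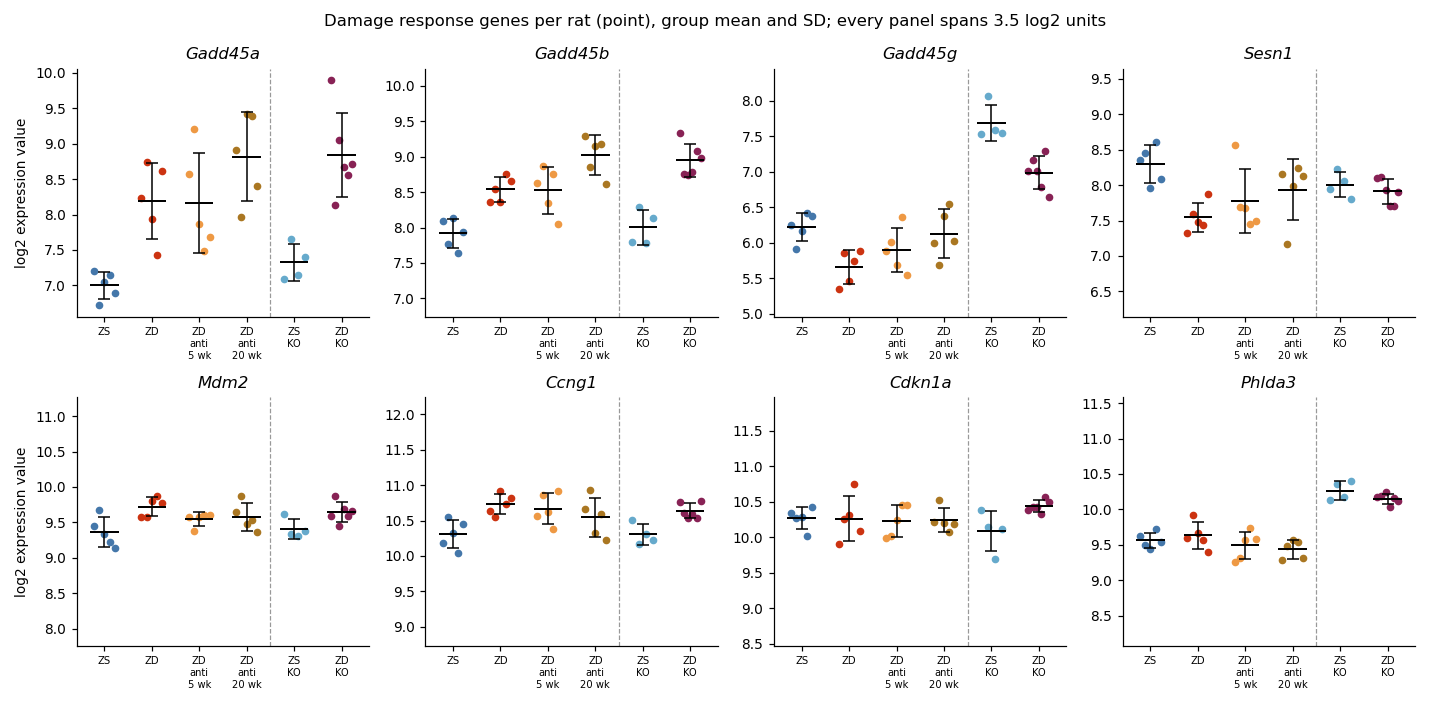
Log2 expression value of each of the 8 measured genes (vertical axis, every panel 3.5 log2 units tall) in each rat (points), by group (horizontal axis), with the group mean and SD as bars; the dashed line parts the unedited from the knockout arrays, whose levels were not tested against each other. Gadd45a and Gadd45b sit higher on the ZD diet on both sides of the line, while Cdkn1a means stay between 10.09 and 10.44.

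These calls in unedited rats moved together with the fall in smooth muscle markers, whose ranges did not overlap between the diets. With the mean of the 12 smooth muscle markers as a covariate in the model, 0 of the 8 genes passed by limma (2 had an unadjusted p under 0.05). Gadd45a kept a difference of 1.32 (limma adjusted p = 0.148) and Gadd45b one of 0.55 (0.220). Gadd45g went to -0.21 (adjusted p = 0.689), Sesn1 to -0.34 (0.538), Mdm2 to 0.22 (0.466) and Ccng1 to 0.14 (0.718). Only 125 of all genes were called in that fit, against 1974 without the covariate. The part of smooth muscle tissue in these differences was not tested beyond this fit.

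AntimiR treatment of ZD rats moved none of the 8 genes past the threshold against untreated ZD rats, at either length of treatment. After 5 weeks 0 of the 8 genes had an unadjusted p under 0.05, and 0.00% of all genes were called by limma (1021 genes had an unadjusted p under 0.05). After 20 weeks 0 of the 8 were called (4 had an unadjusted p under 0.05), and 0.647% of all genes. Of the called genes at 20 weeks 25.0% were higher, or 42.7% after each array was centred on its median. Between 20 and 5 weeks 0 of the 8 were called (1 with an unadjusted p under 0.05), and 0.0211% of all genes.

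Gadd45a stood at 8.57, 9.20, 7.87, 7.49 and 7.68 after 5 weeks of antimiR (8.16 ± 0.71, SD, n = 5) and at 8.90, 7.97, 9.41, 9.38 and 8.40 after 20 weeks (8.81 ± 0.63, SD, n = 5). These are the widest spreads of any gene here in any group, and both groups overlapped with untreated ZD rats. The difference from untreated ZD was -0.03 at 5 weeks (95% interval -0.69 to 0.63, limma adjusted p = 0.991) and 0.62 at 20 weeks (-0.04 to 1.28, adjusted p = 0.365).

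Gadd45b was at 8.62, 8.87, 8.34, 8.76 and 8.05 after 5 weeks (8.53 ± 0.33, SD, n = 5) and at 9.29, 8.86, 9.15, 9.18 and 8.61 after 20 weeks (9.02 ± 0.28, SD, n = 5). At 20 weeks 4 of the 5 rats were above the highest untreated ZD rat, at 8.76. The difference of 0.48 from untreated ZD had an interval of 0.16 to 0.80, but it did not pass over all genes (limma adjusted p = 0.134); that from 5 weeks was 0.49 (adjusted p = 0.495).

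Gadd45g was at 5.88, 6.00, 5.68, 6.36 and 5.55 at 5 weeks (5.90 ± 0.31, SD, n = 5) and at 6.00, 5.69, 6.38, 6.55 and 6.03 at 20 weeks (6.13 ± 0.34, SD, n = 5), between the ZD and ZS means. Its difference from untreated ZD at 20 weeks was 0.47 (SE 0.16, limma adjusted p = 0.164). This became a call, 0.59 with an adjusted p of 0.0431, when arrays were weighted by their quality.

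Sesn1 lay at 8.57, 7.70, 7.68, 7.45 and 7.49 at 5 weeks (7.78 ± 0.46, SD, n = 5) and at 8.15, 7.17, 7.99, 8.24 and 8.13 at 20 weeks (7.94 ± 0.44, SD, n = 5). In each group 1 rat stood apart, rat 6 high at 5 weeks and rat 2 low at 20 weeks. At 20 weeks the other rats were all above the highest untreated ZD rat, and the group difference was 0.39 (SE 0.19, limma adjusted p = 0.327). For Mdm2, Ccng1, Cdkn1a and Phlda3 the differences from untreated ZD ran from -0.17 to -0.03 at 5 weeks and from -0.20 to -0.02 at 20 weeks, and none passed.

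Set against ZS untreated rats, the antimiR rats on the ZD diet still showed higher Gadd45a and Gadd45b, and no other gene of the 8 was called. These comparisons share their ZS arrays with the diet comparison above, and the antimiR groups were compared with the same untreated ZD rats, so they are not separate evidence. At 5 weeks 2 of the 8 genes were called, both higher, against 9.08% of all genes, 4.60% of them higher. Of the genes called at 5 weeks 50.7% were higher, or 63.3% after median centring. At 20 weeks the count was again 2, both higher, against 3.63% of all genes and 1.83% higher. Higher genes made up 50.4% of those calls, or 72.3% after median centring.

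Gadd45a was 1.16 log2 units above ZS at 5 weeks (SE 0.32, limma adjusted p = 0.0221), and this call was lost without antimiR rat 7 (0.90, adjusted p = 0.0825) or ZS rat 17 (adjusted p = 0.0515). At 20 weeks it was 1.81 above (SE 0.32, limma adjusted p = 0.00309), or 3.51-fold, with no overlap between the groups. Gadd45b was 0.61 above ZS at 5 weeks (SE 0.15, limma adjusted p = 0.0130), where the ranges overlapped through rat 10 of the antimiR group at 8.05. At 20 weeks it was 1.10 above (SE 0.15, limma adjusted p = 0.000556), or 2.15-fold, again without overlap. By its p Gadd45b was number 3 of all 14217 genes in the 20-week comparison, and Gadd45a number 26.

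With smooth muscle as a covariate the 20-week calls held, at 1.88 for Gadd45a (limma adjusted p = 0.0139) and 1.07 for Gadd45b (0.00402). The 5-week calls did not hold, at 1.25 (adjusted p = 0.0864) and 0.56 (0.109). The means of the other genes of the diet comparison lay between those of untreated ZD and ZS rats, and they passed against neither in the model without a covariate. Sesn1 was -0.52 from ZS at 5 weeks (adjusted p = 0.0855) and -0.36 at 20 weeks (0.314), Gadd45g -0.33 (0.221) and -0.10 (0.814), and Ccng1 0.35 (0.0592) and 0.23 (0.287), all by limma. At 5 weeks Sesn1 passed without antimiR rat 6 (-0.71, adjusted p = 0.00726), and Ccng1 without antimiR rat 9 (0.43, 0.0305) or ZS rat 17 (0.41, 0.0376).

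**Figure D2:**
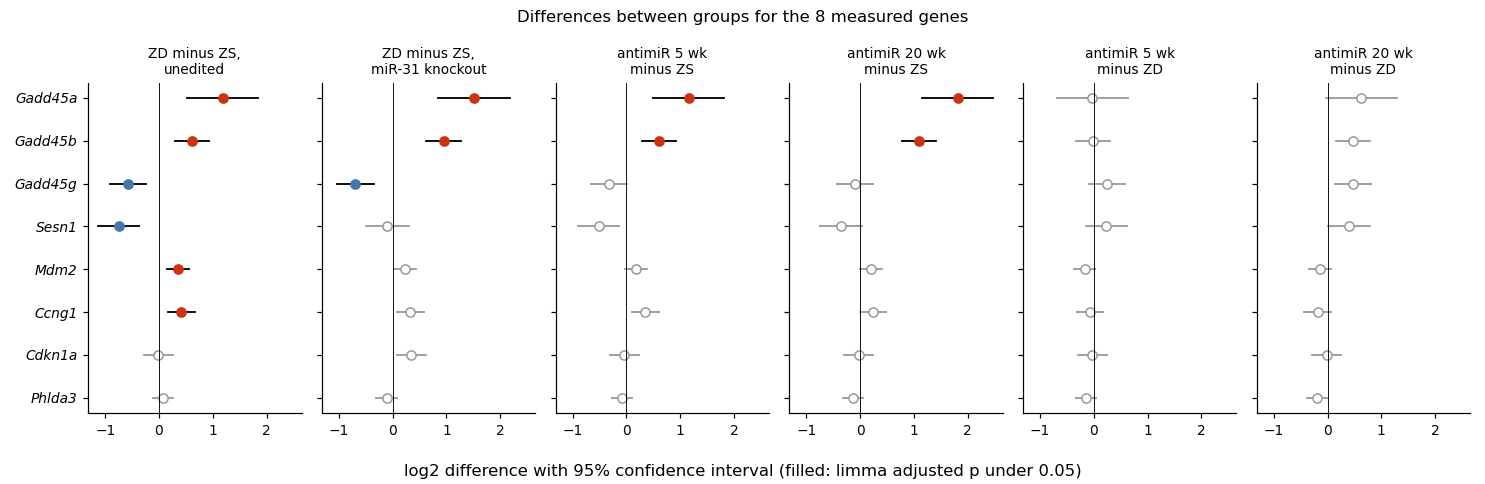
Log2 difference of each of the 8 genes (horizontal axis) with its 95% confidence interval (line) in 6 comparisons (panels); filled points passed limma's adjusted p of 0.05, red higher and blue lower. Gadd45a and Gadd45b are filled in the 4 comparisons against a ZS group and open in both comparisons of antimiR with untreated ZD rats.

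In rats without miR-31 the ZD diet again went with higher Gadd45a and Gadd45b and lower Gadd45g. Here 3 of the 8 genes were called, 2 higher and 1 lower, against 21.4% of all genes (9.47% higher and 12.0% lower). Of all called genes 44.2% were higher, and 64.6% after each array was centred on its median. On the probe sets of highest mean, Sesn1 did not pass in knockout rats, although it was lower on the ZD diet in unedited rats. Nor did Mdm2, Ccng1, Cdkn1a and Phlda3 pass in knockout rats. These rats share no array with the unedited groups.

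Gadd45a was at 7.08, 7.66, 7.15 and 7.40 in ZS knockout rats (7.32 ± 0.26, SD, n = 4). In the ZD knockout rats the lowest value was 8.14, the median 8.69 and the highest 9.89 (8.84 ± 0.59, SD, n = 6). As in unedited rats, the groups did not overlap and the ZD rats were the more widely spread. The difference was 1.51 (SE 0.33, 95% interval 0.84 to 2.19, limma adjusted p = 0.00183), or 2.86-fold.

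Gadd45b stood at 7.80, 8.29, 7.78 and 8.13 on the ZS diet (8.00 ± 0.25, SD, n = 4) and between 8.74 and 9.34 on the ZD diet, with a median of 8.88 (8.95 ± 0.24, SD, n = 6). It rose by 0.95 (SE 0.16, limma adjusted p = 0.000146), or 1.93-fold. Gadd45g stood at 7.54, 8.07, 7.59 and 7.54 (7.68 ± 0.26, SD, n = 4) against 6.65 to 7.29 with a median of 7.02 (6.99 ± 0.24, SD, n = 6). Neither pair of groups overlapped, and Gadd45g fell by 0.70 (SE 0.17, limma adjusted p = 0.00406). With the smooth muscle covariate Gadd45a (1.60, limma adjusted p = 0.00742) and Gadd45b (0.90, 0.00213) were still called, and Gadd45g was not (-0.48, 0.0738).

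Apart from Gadd45a, none of the 5 measured p53 targets passed in these rats on the probe set of highest mean. Other probe sets of Cdkn1a and Sesn1 did pass and are described below. Ccng1 was at 10.51, 10.18, 10.31 and 10.22 in ZS knockout rats (10.31 ± 0.15, SD, n = 4) and at 10.54 to 10.77 in ZD knockout rats (10.63 ± 0.11, SD, n = 6). The groups did not overlap, but the difference of 0.33 just missed the threshold (SE 0.12, limma adjusted p = 0.0513). It passed when only the knockout arrays were fitted (adjusted p = 0.0278) and under 6 of the other settings tried, with an adjusted p between 0.0124 and 0.0492. Cdkn1a stood at 10.38, 10.15, 9.70 and 10.12 on the ZS diet (10.09 ± 0.29, SD, n = 4) and at 10.32 to 10.57 on the ZD diet (10.44 ± 0.09, SD, n = 6), a difference of 0.35 (SE 0.13, limma adjusted p = 0.0626). Mdm2 differed by 0.23 (adjusted p = 0.110) and Phlda3 by -0.11 (0.422). After median centring, or without ZS knockout rat 30, Ccng1, Cdkn1a and Mdm2 all passed; without that rat their differences were 0.40, 0.45 and 0.30 (limma adjusted p = 0.0292, 0.0246 and 0.0484).

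Sesn1 lay at 7.94, 8.23, 8.05 and 7.80 in ZS knockout rats (8.01 ± 0.18, SD, n = 4) and between 7.70 and 8.11 in ZD knockout rats (7.91 ± 0.18, SD, n = 6). The groups overlapped over most of their range, and the difference was -0.10 with an interval of -0.49 to 0.30 (limma adjusted p = 0.766).

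Whether the response to diet differed between knockout and unedited rats was tested as the difference of the differences. The knockout rats also came from an experiment and array set of their own. Genotype cannot be told apart from these in that test. For the 8 genes 0 passed (1 had an unadjusted p under 0.05), against 8.39% of all genes; of those calls 45.0% were higher, or 57.2% after median centring. Sesn1 had the only unadjusted p under 0.05: its diet difference was 0.65 less negative in knockout rats (SE 0.27, interval 0.10 to 1.21, limma adjusted p = 0.134). With only these 4 groups in the fit the same 0.65 passed (adjusted p = 0.0400). It did not pass in the other settings tried, where it fell as low as 0.21, nor on leaving out any 1 array. The other Sesn1 probe set gave the opposite sign, -0.22 (limma adjusted p = 0.610). For Gadd45a the diet difference was 0.32 larger in knockout rats with an interval of -0.62 to 1.27, and for Gadd45b 0.32 larger with -0.13 to 0.78. These intervals leave room for differences of a size near the diet response itself.

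Levels in the knockout arrays can only be set beside the others. Gadd45g ran from 6.65 to 8.07 there and from 5.34 to 6.55 in the unedited arrays, and Phlda3 from 10.03 to 10.40 against 9.26 to 9.92, with no overlap for either gene. The array medians of the sets also do not overlap, and these gaps were not tested.

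Gadd45a and Gadd45b varied together over the 20 unedited arrays, with a Pearson correlation of 0.82 of their log2 values. Once the group means were taken out it was 0.44, so much of the likeness lay between the groups. Gadd45g had 0.02 with Gadd45a over all arrays and 0.44 within groups. Cdkn1a had -0.48 with Gadd45a, and -0.73 within groups. Mdm2 and Ccng1 had 0.69, and 0.53 within groups; Gadd45g and Ccng1 had -0.68, and -0.52 within groups. These are descriptions over 20 arrays that share 4 groups and a single normalization.

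**Figure D3:**
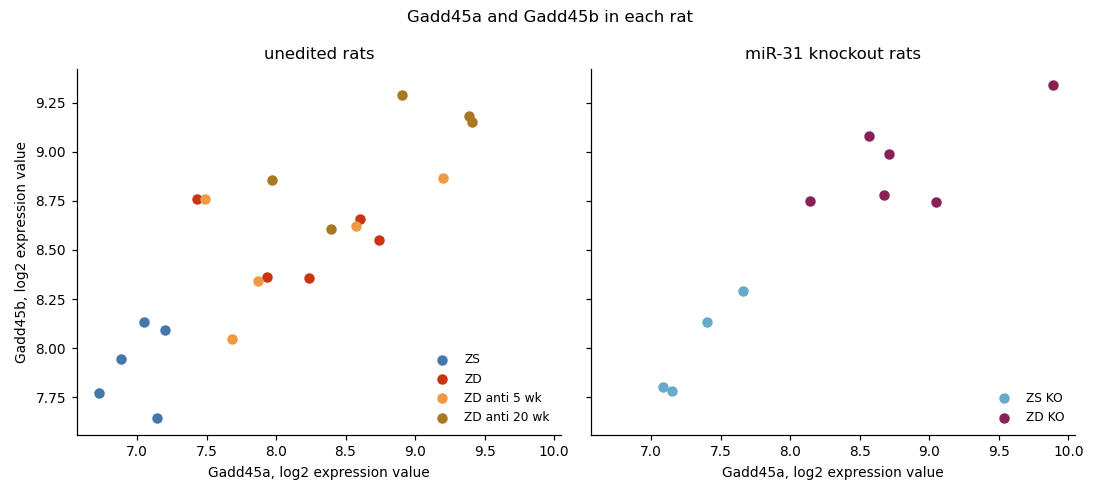
Log2 expression value of Gadd45b (vertical axis) against that of Gadd45a (horizontal axis), 1 point per rat coloured by group, for the 20 unedited rats (left) and the 10 knockout rats (right). The ZS rats lie at the lower left of both panels, with Gadd45a at most 7.66, and the rats given antimiR for 20 weeks reach the highest Gadd45b of the unedited groups, 9.29.

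The genes whose log2 values followed each member most closely over the same 20 arrays were named by a fixed rule, the 3 of highest Pearson correlation. For Gadd45a they were Heca (0.88), Mreg (0.86) and Ifrd1 (0.85), and for Gadd45b Ifrd1 (0.90), Cyp2j4 (0.84) and Mreg (0.84), so Ifrd1 and Mreg stood on both lists. Gadd45g was most like Ryr3 (0.82), Spink8 (0.81) and Kcnd3 (0.80). Mdm2 was most like Ccz1 (0.86), Slc7a6os (0.86) and Tor1aip1 (0.85), and Ccng1 like Tcim (0.86), Atl3 (0.83) and Cdh3 (0.82). Cdkn1a had Spout1 (0.86), Pbdc1 (0.83) and Mrpl38 (0.83), and Phlda3 had Gucd1 (0.85), Ddx20 (0.85) and Pdcl3 (0.84). The closest pair of all was Sesn1 with Bles03 (0.93, and 0.92 within groups), before Aldh3a2 (0.90) and Tmem42 (0.89).

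Cdkn1a, Mdm2 and Sesn1 had further probe sets, which did not all give the same result. They were tested with every probe set as its own feature. The other Cdkn1a probe set stood at 7.14, 6.70, 6.17 and 7.14 in ZS knockout rats (6.79 ± 0.46, SD, n = 4) and at 7.36 to 8.04 in ZD knockout rats (7.76 ± 0.26, SD, n = 6). Those groups did not overlap, and the difference of 0.97 passed (SE 0.22, limma adjusted p = 0.00236), where the main probe set gave 0.35. In unedited rats the same probe set gave 0.38 (adjusted p = 0.270).

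For Sesn1 the main probe set passed in unedited rats only and the other in knockout rats only, and the difference between genotypes passed for neither (limma adjusted p = 0.133 and 0.610). The other probe set was lower on the ZD diet in knockout rats by 0.52 (SE 0.16, limma adjusted p = 0.0215) and gave -0.30 in unedited rats (0.242). This probe set was read at 4.36 to 5.75, low on the scale of the arrays. The other Mdm2 probe sets gave 0.62 (limma adjusted p = 0.0517) and 0.53 (0.0108) in unedited rats, both larger than the 0.35 of the main one. In knockout rats they gave -0.28 and 0.08 against 0.23, with none called.

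**Figure D4:**
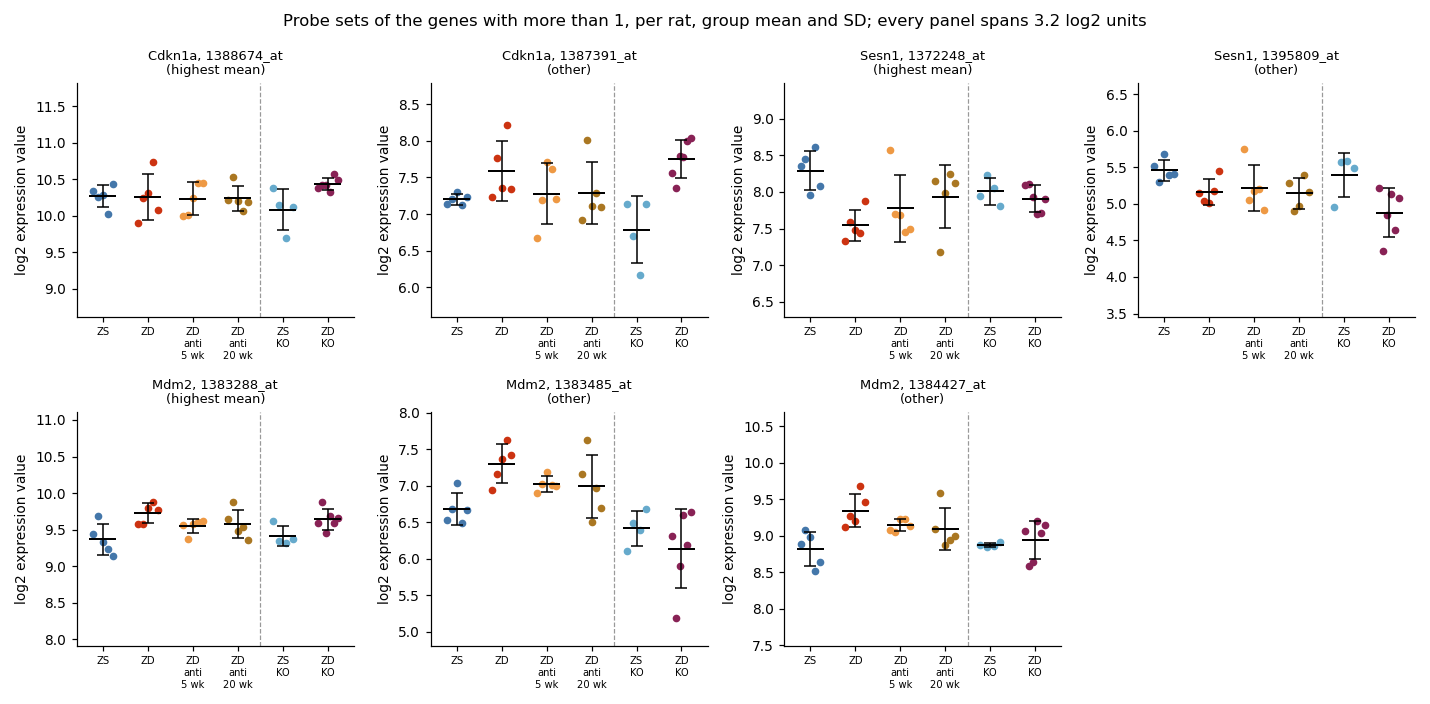
Log2 expression value (vertical axis, every panel 3.2 log2 units tall) of each probe set of Cdkn1a, Sesn1 and Mdm2 in each rat (points), by group, with the group mean and SD; the dashed line parts unedited from knockout arrays. The second Cdkn1a probe set parts the knockout diets without overlap (6.17 to 7.14 against 7.36 to 8.04), whereas the ranges of the first overlap, with a highest ZS value of 10.38 and a lowest ZD value of 10.32.

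Other genes of the pathway are described by their counts beside the share of all genes called. Their lists were fixed by name, also with earlier results of these data known. Over the 127 genes of these lists 11.0% were called for the diet in unedited rats, against 13.9% of all genes, and 28.3% in knockout rats, against 21.4%. Of 30 other p53 targets, 1 was higher and 3 lower on the ZD diet in unedited rats, with a median difference of 0.09; over all genes 6.94% were higher and 6.95% lower, so the count is near that background. The higher one was Apaf1, which builds the apoptosome (0.32, limma adjusted p = 0.0169). The lower ones were the damage sensor Ddb2 (-0.53, 0.00761), the metalloreductase Steap3 (-0.52, 0.0121) and Sesn2, a relative of Sesn1 (-0.23, 0.0432), the last of which lost its call without any 1 of 8 of the 10 arrays (adjusted p up to 0.124). With the smooth muscle covariate none of these 4 passed. Against ZS rats, Ddb2 (-0.56, 0.00749) and Steap3 (-0.45, 0.0380) were lower in the 5-week antimiR group as well, Steap3 with a call that ended without any 1 of 8 of the 10 arrays (up to 0.117) and both with calls that ended under the covariate. None of the 30 passed in the antimiR groups against untreated ZD, where 3 at 5 weeks and 6 at 20 weeks had an unadjusted p under 0.05.

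In knockout rats 10 of the 30 p53 targets were higher and 3 lower on the ZD diet, against 9.47% higher and 12.0% lower over all genes, with a median of 0.08. Rps27l rose (0.54, limma adjusted p = 0.000528) and so did Sesn2 (0.44, 0.000323), opposite to its direction in unedited rats. Steap3 fell (-0.83, 0.000169), as did the nucleotide excision repair factor Xpc (-0.52, 0.00231), whose call ended with the smooth muscle covariate. Over all genes, by comparison, the median difference was 0.01.

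Of 16 regulators of p53, 0 were called by limma in unedited rats (3 had an unadjusted p under 0.05) and 6 in knockout rats, all higher on the ZD diet, with a median of 0.21. Over all genes 13.9% were called in unedited rats, and 9.47% were higher in knockout rats. They included Usp7, which removes ubiquitin from p53 and Mdm2 (0.59, limma adjusted p = 7.67e-05), the ubiquitin ligase Rchy1 (0.35, 0.00115) and the acetyltransferases Crebbp (0.36, 0.00249) and Ep300 (0.25, 0.0134). The call of Ep300 ended without ZS knockout rat 31 or 33 (adjusted p up to 0.0670) and with only the knockout arrays (0.0691). Tp63, the p53 relative that marks basal epithelial cells, gave -0.00 in unedited (adjusted p = 0.995) and 0.03 in knockout rats (0.876).

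The next list held 13 genes, partners of the Gadd45 proteins and members of the p38 and JNK relay. In unedited rats 0 were higher and 1 lower, against 6.94% and 6.95% of all genes. That gene was Map2k6, which activates p38 (-0.41, limma adjusted p = 0.0374), and it was higher in the 20-week antimiR group than in untreated ZD rats (0.62, 0.0278). Both calls shared the untreated ZD arrays, each ended without any 1 of 7 of 10 arrays (adjusted p up to 0.114 and 0.118), and both ended with the covariate. In knockout rats 2 of the 13 were lower on the ZD diet, p38 alpha itself (Mapk14, -0.33, 0.00248) and the Gadd45-binding kinase Map3k4 (-0.33, 0.0142), and 0 were higher. Over all genes 12.0% were lower and 9.47% higher in that comparison. The call of Map3k4 ended after median centring and with only the knockout arrays (adjusted p up to 0.0782).

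Of 24 early stress genes, 6 were higher and 1 lower in unedited ZD rats, with a median of 0.36, and 7 were higher and 0 lower in knockout rats, with a median of 0.41. The shares of all genes called higher were 6.94% and 9.47%, and those called lower 6.95% and 12.0%. Junb, an AP-1 subunit, was higher in both (0.64, limma adjusted p = 0.00150, and 0.89, 2.94e-05). Trib3 (1.12, 0.00178) and asparagine synthetase, Asns (1.10, 0.00268), both known from the amino acid stress response, were higher in unedited rats. Klf4 (0.63, 7.65e-05) and Klf6 (0.53, 0.00167) were higher in knockout rats. Egr2 was lower in unedited ZD rats (-0.89, 0.000683) and higher in knockout ZD rats (1.02, 9.02e-05). After 20 weeks of antimiR, Egr2 was higher than in untreated ZD rats (1.07, 0.00478) and Asns lower (-1.09, 0.0278), the latter with a call that ended without any 1 of 7 of the 10 arrays (adjusted p up to 0.112). The unedited diet calls of Junb, Trib3 and Asns ended with the smooth muscle covariate, and that of Egr2 did not. The 20-week call of Asns also ended with this covariate and with only the groups compared (limma adjusted p up to 0.178).

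Against ZS rats 2 of the 24 were higher in the 5-week antimiR group, Junb (0.52, limma adjusted p = 0.00982) and Dusp1, a phosphatase of p38 and JNK (0.65, 0.0320), and 1 in the 20-week group, Ier5 (0.41, 0.0267). The shares of all genes called higher were 4.60% at 5 weeks and 1.83% at 20 weeks. The call of Dusp1 ended without antimiR rat 6 or 7 or ZS rat 19 or 20 (adjusted p up to 0.106), that of Ier5 without antimiR rat 1 or 2 or ZS rat 16, 19 or 20 (up to 0.114), and those of all 3 with the covariate.

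A list of 14 genes of cell cycle control (inhibitors of cyclin-dependent kinases, the BTG and TOB family, cyclins, Cdk2 and Sesn3) had 1 gene higher in unedited ZD rats, the sestrin Sesn3 (0.64, limma adjusted p = 0.00815), in the direction opposite to Sesn1. In knockout rats 3 were higher, Sesn3 (0.60, 0.00998), Tob2 (0.25, 0.0333) and Cdkn2c (0.29, 0.0489), of which Tob2 lost its call without rat 31, 32, 37 or 39 (adjusted p up to 0.166) and Cdkn2c without any 1 of 7 of the 10 arrays (up to 0.194). Sesn3 lost both calls with the covariate, and Tob2 lost its call with it too (limma adjusted p = 0.0640). The call of Cdkn2c also ended with array weights and with only the knockout arrays (limma adjusted p up to 0.237). Over all genes 6.94% were higher on the ZD diet in unedited and 9.47% in knockout rats. Of 13 apoptosis genes, the BCL2 family with Casp8 and Casp9, 0 passed in unedited rats by limma (3 had an unadjusted p under 0.05) and 2 were higher in knockout rats, the survival factor Mcl1 (0.49, 0.00154) and the pore former Bak1 (0.39, 0.0193), Bak1 with a call that ended without ZS knockout rat 31 (adjusted p = 0.0897). The call of Bak1 also ended with only the knockout arrays and with the smooth muscle covariate (limma adjusted p up to 0.195). The only other call of that list was a lower Bad in the 20-week antimiR group against ZS (-0.36, 0.0251), which ended without antimiR rat 1 or 3 or ZS rat 16 or 18 (adjusted p up to 0.0778). That call also ended after median centring, with only the groups compared and with the covariate (limma adjusted p up to 0.0954). Beside these counts, 13.9% of all genes were called for the unedited diet and 3.63% at 20 weeks against ZS.

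DNA repair genes (17) showed 0 higher and 1 lower in unedited ZD rats, the mismatch repair gene Msh6 (-0.36, limma adjusted p = 0.00531), a call that held under each alternative tried; 6.95% of all genes were lower. It was also lower than ZS in both antimiR groups (-0.26, 0.0469, and -0.34, 0.0238), with calls that ended at 5 weeks without any 1 of 9 of the 10 arrays (adjusted p up to 0.121) and at 20 weeks without antimiR rat 1 or ZS rat 16 or 18 (up to 0.0896). At 5 weeks the ligase Lig1 was lower (-0.52, 0.0208) and the glycosylase Mpg, which removes alkylated bases, higher (0.30, 0.0377), with calls that ended for Lig1 without antimiR rat 8 or ZS rat 20 (up to 0.0553) and for Mpg without any 1 of 6 of the 10 arrays (up to 0.124). The smooth muscle covariate also ended the 5-week calls of Msh6, Lig1 and Mpg. With only the groups compared, the calls of Mpg and of Msh6 in both antimiR groups ended. In these settings the limma adjusted p reached up to 0.345. In knockout rats 3 were lower and 0 higher, against 12.0% of all genes lower: Xrcc1 (-0.64, 0.000647), Parp1 (-0.56, 0.00188) and Apex1 (-0.49, 0.0167). The call of Apex1 ended without ZS knockout rat 31 or 33 (adjusted p up to 0.0682).

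In the knockout comparison, markers of several other cell types were lower on the ZD diet too: 5 of 10 macrophage genes, 3 of 8 T and B cell genes, 3 of 9 endothelial genes and 4 of 10 fibroblast genes, besides the smooth muscle genes, against 12.0% of all genes. Of 12 skeletal muscle genes 1 was lower, Myh1 (-0.41, limma adjusted p = 0.00456), with a median of -0.80 over the list. Of 6 neutrophil and mast cell genes, Csf3r (-0.33, limma adjusted p = 0.00327) and Cpa3 (-1.08, 0.0364) were lower and Cxcr2 higher (0.60, 0.0238). The group means of Csf3r lay between 3.05 and 3.57, low on the scale of the arrays. In unedited rats 1 macrophage gene and 2 endothelial genes were higher, against 6.94% of all genes. No other gene of the macrophage, T and B cell, endothelial and fibroblast lists passed there. In the test of the difference between genotypes, 5 macrophage genes, 4 endothelial genes, Cd3e of the T and B cell list and Csf3r passed with a more negative diet difference in knockout rats, and Cxcr2 passed the other way (0.95, limma adjusted p = 0.0261). Over all genes 8.39% were called in that test. Mean macrophage marker levels ran from 6.82 to 9.08 in ZS knockout and from 6.35 to 7.21 in ZD knockout rats. Mean T and B cell marker levels ran from 4.96 to 7.28 (median 5.44) in ZS knockout rats. In ZD knockout rats they ran from 5.03 to 5.28, wholly inside the ZS range. Whether the marker calls hang on a single array was not examined. The part of these cells in the pathway differences of the knockout rats was not tested.

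**Figure D5:**
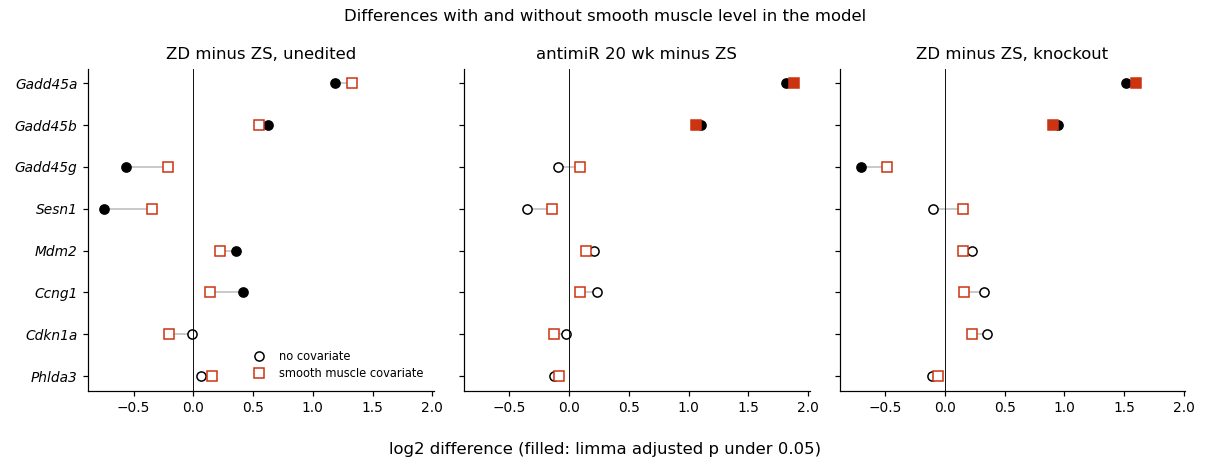
Log2 difference of each of the 8 genes (horizontal axis) without a covariate (circles) and with the mean level of 12 smooth muscle markers in the model (squares) in 3 comparisons; filled symbols passed limma's adjusted p of 0.05. In unedited rats no square is filled, whereas Gadd45a and Gadd45b are filled in the 20-week antimiR comparison with ZS and in knockout rats.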

How the data were processed

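The authors deposited log2 expression values from Affymetrix arrays, for which the submitters' processing notes name Affymetrix Expression Console and RMA (a method of background correction, quantile normalization and summary per probe set); their versions are not given in the sources used here. These values cover 31099 probe sets on 30 arrays, 1 per rat, and run from 2.11 to 14.5. Of these, 20826 carried 1 gene symbol, 436 several, 9780 none that was used and 57 were controls; 20758 were matched by gene ID. Each of 14217 genes was represented by the probe set of highest mean over all arrays (4525 genes had more than 1).

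With limma 3.58.1 (R 4.3.3) a linear model with 1 coefficient per group and no covariate was fitted over the 30 arrays together, with Benjamini-Hochberg adjustment over all genes within each of 8 comparisons, a threshold of 0.05 and 95% intervals. The fit was tested on simulated data. Rats are the replicates, and their number limits the precision; within-group array correlations were at least 0.977.

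The genes followed and the lists were chosen with earlier results of these data known. Named genes were the members, Tp63, up to 4 called genes of smallest adjusted p per pathway list and comparison, and the 3 genes of highest correlation with each member. Alternatives were quantile normalization, median centring, a filter on dim genes, robust fitting, array weights, fewer groups, other probe set rules, a smooth muscle covariate and leaving out each array.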

Additional observations from a re-analysis of the deposited data

Results flagged for a closer look

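Within groups, 4 of the 48 sets of values checked (8 genes in 6 groups) had a single rat that stood apart from the rest by Dixon's criterion at the 95% level, which chance meets in about 1 set of every 20. Gadd45g was 8.07 in ZS knockout rat 31, where the other rats of that group had 7.54 to 7.59. Mdm2 was 9.38 in rat 7 of the 5-week antimiR group, against 9.57 to 9.61 in the others. Sesn1 was 8.57 in rat 6 of that group, against 7.45 to 7.70, and 7.17 in rat 2 of the 20-week antimiR group, against 7.99 to 8.24.

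Of the 127 pathway genes measured, 11 (8.66%, against 8.39% of all genes) responded to the diet differently in knockout and unedited rats, by the test of the difference itself (limma, adjusted p under 0.05). Egr2 differed most, by 1.92 (adjusted p = 2.28e-05): it was lower on the ZD diet in unedited rats (-0.89) and higher in knockout rats (1.02). Sesn2 differed by 0.67 (adjusted p = 0.000826), with -0.23 in unedited and 0.44 in knockout rats, again opposite and called in both. Usp7 differed by 0.68 (0.00257) and Rps27l by 0.57 (0.0152), both called only in knockout rats (0.59 and 0.54). The interaction calls of these 4 genes held under each alternative, leaving out each array included. In all 11 calls genotype cannot be told apart from the separate experiment and array set of the knockout rats.

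The interaction of Msh6 was 0.45 (adjusted p = 0.0214), with -0.36 in unedited rats, and ended without ZS knockout rat 32. Those of Tp53i11 (-0.91, 0.0316), Ep300 (0.34, 0.0328), Ddit4 (-1.07, 0.0406), Map2k6 (0.62, 0.0429), Klf4 (0.44, 0.0477) and Apex1 (-0.64, 0.0482) were nearer to the threshold, and each ended without any 1 of between 7 and 16 of the 20 arrays (highest adjusted p 0.146).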

How the results depend on the processing

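Of 632 values of the 8 genes under alternatives other than leaving out an array, 606 kept their call, 10 lost it, 16 gained one and 0 called values turned direction. Of those that kept their call, 21 turned sign and were called in neither fit, none larger than 0.187 in size; among them Cdkn1a for the unedited diet was 0.19 with the mean of all probe sets, and Sesn1 for the knockout diet 0.15 with the smooth muscle covariate. With the smooth muscle covariate the unedited diet count went from 6 to 0 and the 5-week antimiR count against ZS from 2 to 0. Array weights raised the latter to 4 and the 20-week count against untreated ZD from 0 to 1. The knockout diet count of 3 became 6 after median centring and 5 with the mean of all probe sets, and 5 with every probe set as its own feature and a gene counted where any of its probe sets passed, and the diet by genotype count of 0 became 1 with only the groups compared. Leaving out each array gave 3 to 6 genes for the unedited diet, 3 to 6 for the knockout diet, 1 to 3 at 5 weeks against ZS, 2 each time at 20 weeks against ZS and 0 each time for the other comparisons. The causes of these shifts were not tested. Of 57 named pathway calls, 21 held under every alternative, 24 ended without at least 1 array and 27 with the smooth muscle covariate. Other settings also ended some of them: the mean of all probe sets ended those of Apaf1, Sesn2 and Sesn3 for the unedited diet, Ddb2 and Dusp1 at 5 weeks against ZS, Ier5 at 20 weeks, Cdkn2c and Apex1 in knockout rats, and the interaction of Ep300.

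Over all genes the covariate cut the calls from 1974 to 125 (unedited diet), from 1291 to 257 (5 weeks against ZS), from 516 to 119 (20 weeks against ZS), from 92 to 27 (20 weeks against ZD) and from 3049 to 1536 (knockout diet). Array weights gave 2131, 557 and 22 calls in place of 1291, 92 and 3 for 5 weeks against ZS, 20 weeks against ZD and 20 against 5 weeks. With only the groups compared, 516 became 140, 92 became 21 and 3 became 0. Median centring and the filter on dim genes each gave 7 in place of 3 for 20 against 5 weeks, and quantile normalization and median centring gave 2 and 1 in place of 0 for 5 weeks against ZD. A fit with only the arrays of 1 normalization set was chosen after seeing the data; of the 8 genes it changed 1 call, that of Ccng1 in knockout rats, which then passed. No paired analysis was possible because the sample numbers are unique to each rat.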
